A study of Arabidopsis thaliana with 8 samples.

Results

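The expansin superfamily of Arabidopsis thaliana was followed in whole seedlings of 4 genotypes. The 36 genes were taken by family membership from a list of locus identifiers by a rule that uses no measured value, although the family was picked for description with earlier results of these data known, and all 36 were found among the 33602 genes of the deposited table. They comprise 26 alpha-expansins (EXPA), 6 beta-expansins (EXPB), 3 expansin-like A genes (EXLA) and 1 expansin-like B gene (EXLB1).

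Expansins are secreted cell wall proteins that loosen the contacts between cellulose microfibrils and the matrix around them without cutting the polymers, and they act best in the acid wall that plasma membrane proton pumps create in growing cells. Alpha- and beta-expansins are the members with shown wall-loosening activity, while the expansin-like genes are placed in the family by sequence. COBRA (COB) sits at the cell surface on a lipid anchor, and growing cells need it to lay down cellulose in order and to expand along their growth axis. MEDIATOR16 (MED16, also SFR6) is a tail subunit of Mediator, the complex that links transcription factors to RNA polymerase II, and is known for its role in cold-responsive genes whose promoters carry the C-repeat core CCGAC.

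The study sequenced RNA from seedlings 7 days old, grown under light for 24 h a day, and its title names MED16 as the suppressor of COB. The wild type was Col-0 (WT), the single mutants were cob-6, which carries an allele of COB, and sfr6-3, which carries an allele of MED16, and the double mutant cob-6sfr6-3 carried both. Each genotype had 2 libraries and is 1 allele or allele pair, and the labels do not say whether the 2 libraries came from separate plantings, so the p-values rest on a spread among libraries that may be technical only. In RNA from whole seedlings, fewer cells of a type and less RNA per cell cannot be told apart.

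Of the 8 libraries, WT replicate 1 stood apart: it held 324504432 reads assigned to genes, against 24011199 to 37744914 in the other 7. In each of the 25179 genes with uniquely mapped reads, it held no fewer of them than the other 7 libraries together. The 28 such expansins were among these genes. Its independence from the other 7 libraries is therefore in doubt. Counts of members called against WT, and most WT comparisons of the members described below, are given with WT replicate 1 and without it. They are also given with the other 7 subtracted from it, in a fit on unique reads of all 8 libraries. Other gene lists against WT are given with WT replicate 1 only. So are the members' medians and counts at an unadjusted p against WT. COB read 143 and 239 CPM (counts scaled to library size) in WT and 187 in both sfr6-3 libraries, against 68.3 and 66.9 in cob-6 and 82.5 and 70.3 in the double mutant. MED16 read 24.3 and 34.5 CPM in WT and 29.3 and 39.1 in cob-6, against 8.59 and 8.45 in sfr6-3 and 10.8 and 7.48 in the double mutant. Both genes were low in the libraries labelled as their mutants.

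Most of the alpha-expansin message came from a few genes. Levels between genes are compared as deposited RPKM (reads scaled to exon length and library size). EXPA1, an alpha-expansin known from guard cells, had the highest level, with 322 and 229 RPKM in WT, 349 and 390 in cob-6, 272 and 304 in sfr6-3 and 329 and 193 in the double mutant. It made up 30.6% to 48.5% of the summed RPKM of all 36 genes in the 8 libraries. EXPA6 followed at 76.9 to 101 RPKM, then EXPA3 at 41.6 to 69.7, EXPA8 at 18.8 to 47.2, EXPA9 at 24.1 to 37.9 and the beta-expansin EXPB3 at 15.1 to 40.3. The ranges of EXPA1, EXPA6 and EXPA3 did not overlap, whereas those of EXPA8, EXPA9 and EXPB3 did, so the order of the last 3 is not set beyond their spread.

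Over all members, 15 had a mean of at least 10 RPKM, 8 lay between 1 and 10, and 13 were below 1. EXLA1 at 21.8 to 42.3 RPKM and EXLA2 at 9.2 to 19.6 were the well-read expansin-like A genes, while EXLA3 stayed at 0.347 to 2.3. EXLB1 ranged from 1.14 to 13.1 RPKM, the widest relative spread among the members above 5 RPKM on average. EXPA7 at 1.11 to 4.46 and EXPA18 at 1.39 to 7.02 RPKM, both known as root hair expansins, ranked below all 15 members that averaged at least 10 RPKM.

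No read fell on 6 members, which were EXPA23, EXPA24, EXPA25, EXPB4, EXPB5 and the transcribed pseudogene EXPA19, which is listed with an exon length of 0 bases. A count of 0 allows up to 3 reads, which is 0.00928 CPM in WT replicate 1 and 0.0807 to 0.123 CPM in the other 7 libraries. EXPA22 to EXPA26 lie in a tandem array with EXPA21 on chromosome 5 between 15726378 and 15740514, and the coding sequences of EXPA22 and EXPA26 are 97.7% identical. The 1 read of EXPA22 and the 7 reads of EXPA26 were not unique, so reads of these copies may be divided or lost between them. EXPA20 is also uncertain, since 48.1% of its reads were unique, whereas 27 members had at least 98% unique reads. It overlaps AT4G38215 by 642 bases, but that gene had 57 reads against 3582 of EXPA20. The other untested members were EXPA2, EXPA21, EXPB2 and EXPB6, at means of 0.172, 0.181, 0.0877 and 0.0 RPKM.

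**Figure D1:**
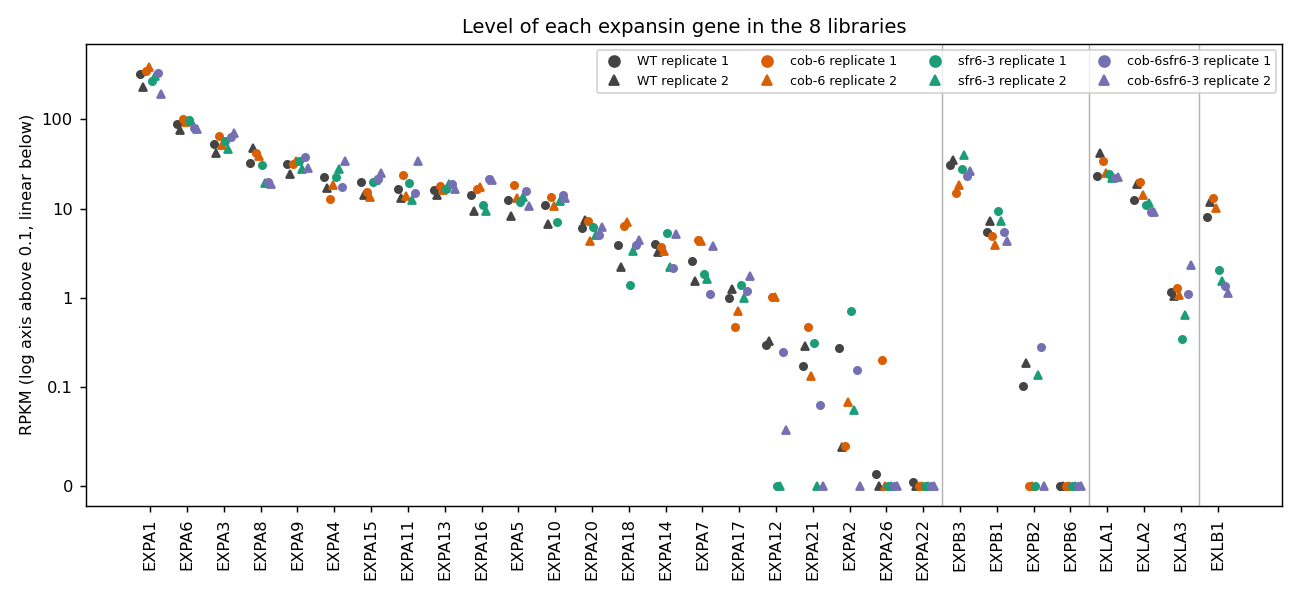
RPKM of the 30 expansin genes with reads in each of the 8 libraries, on an axis that is logarithmic above 0.1 and linear below, with vertical lines between EXPA, EXPB, EXLA and EXLB. EXPA1 lies highest in every library, from 193 to 390 RPKM, and the 4 EXLB1 points of sfr6-3 and cob-6sfr6-3 lie below its 4 points of WT and cob-6.

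The summed RPKM of the 36 genes was 739 and 635 in WT, 817 and 804 in cob-6, 694 and 704 in sfr6-3, and 729 and 629 in the double mutant. The cob-6 libraries were the highest, and the other 3 genotypes overlapped. Beta-expansins summed to 36.7 and 42.9 RPKM in WT, 19.9 and 22.1 in cob-6, 37.3 and 47.6 in sfr6-3 and 29.1 and 30.3 in the double mutant, so that cob-6 was lowest and the double mutant lay between it and the rest. No test was made on these sums. Most of the beta-expansin sum came from EXPB3, at 15.1 and 18.2 RPKM in cob-6 and 23.4 and 26.1 in the double mutant. EXPB1 overlapped between these genotypes, at 4.87 and 3.87 RPKM in cob-6 and 5.44 and 4.27 in the double mutant.

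Changes were tested with edgeR's quasi-likelihood test on the gene counts, with Benjamini-Hochberg adjustment over the 21384 genes that passed the filter on low counts. A member was called at an adjusted p below 0.05. The filter kept 24 members, namely 18 EXPA, 2 EXPB, the 3 EXLA and EXLB1, and the other 12 have levels only. EXPA12 passed the filter through its cob-6 libraries alone, where it was highest, so it is left out of the counts at an unadjusted p and of the medians, which are over 23 members. Changes are log2 differences between TMM-scaled levels, given with their standard error. Comparisons that name the same genotype share its 2 libraries, so they are not independent of each other.

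EXLB1 (AT4G17030, chromosome 4, 9581586 to 9583290 in the deposited annotation) was the member called by this test, and it fell wherever the sfr6-3 allele was present. It read 8.98 and 13.9 CPM in WT and 14 and 11 in cob-6. It read 2.26 and 1.68 CPM in sfr6-3 and 1.52 and 1.26 in the double mutant. The 4 libraries with the sfr6-3 allele lay below the 4 without it, and no pair of them overlapped across that divide. WT averaged 11.4 ± 3.49 CPM and cob-6 12.5 ± 2.08, whereas sfr6-3 averaged 1.97 ± 0.41 and the double mutant 1.39 ± 0.178 (SD, n = 2 each).

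EXLB1 was 5.76-fold lower in sfr6-3 than in WT (log2 change -2.53 ± 0.32, edgeR adjusted p = 0.0179) and 9.04-fold lower in the double mutant than in cob-6 (-3.18 ± 0.33, edgeR adjusted p = 0.000999). Against WT the double mutant was 8.21-fold lower (-3.04 ± 0.33, edgeR adjusted p = 0.00347). The cob-6 allele was not accompanied by a called difference, with a log2 change of 0.14 ± 0.29 against WT (edgeR adjusted p = 0.999) and -0.51 ± 0.34 between the double mutant and sfr6-3 (edgeR adjusted p = 0.513). The interaction, which is the difference between the cob-6 effect with and without sfr6-3, was -0.65 ± 0.45 (edgeR adjusted p = 0.692). Both falls in the double mutant were called under all 15 alternatives, and the one against WT was -3.33 without WT replicate 1 and -3.30 with the other 7 subtracted. For cob-6 against WT these settings gave -0.15 and -0.13, and for the interaction -0.36 and -0.38, none of them called. The fall in sfr6-3 was called without WT replicate 1 (-2.82, edgeR adjusted p = 0.00253) and with the other 7 subtracted from it (-2.79, edgeR adjusted p = 0.000246), but not without sfr6-3 replicate 1 (-2.76, edgeR adjusted p = 0.123) or replicate 2 (-2.32, edgeR adjusted p = 0.228).

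In the authors' deposited table of the double mutant against cob-6, EXLB1 has a fold of -8.23, where the minus sign marks a lower level in the double mutant, with p = 8.83e-05. Across the family, 6 members have a p below 0.05 in the authors' deposited table, of which 4 were lower and 2 higher, against 3.18% of all 33602 genes there.

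The 250 bases before the RefSeq start of EXLB1, on the minus strand of the TAIR10.1 assembly at chr4:9583291-9583540, and the same window of EXPB3, at chr4:14002125-14002374 on the minus strand, are shown because these members had the smallest p-values with the sfr6-3 and the cob-6 allele against WT. The capitals in EXPB3 mark the letters GTCGG, which are CCGAC on the opposite strand, from 87 to 83 bases before the start.
EXLB1: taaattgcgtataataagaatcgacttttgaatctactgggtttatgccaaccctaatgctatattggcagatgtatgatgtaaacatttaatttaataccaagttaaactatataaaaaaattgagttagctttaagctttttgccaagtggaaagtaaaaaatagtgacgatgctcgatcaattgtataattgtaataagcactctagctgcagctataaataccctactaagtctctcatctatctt
EXPB3: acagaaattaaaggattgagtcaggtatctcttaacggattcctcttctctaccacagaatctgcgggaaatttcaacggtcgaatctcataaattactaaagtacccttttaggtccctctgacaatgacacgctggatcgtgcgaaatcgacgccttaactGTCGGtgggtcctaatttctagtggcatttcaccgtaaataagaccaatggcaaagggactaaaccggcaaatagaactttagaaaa
Both strands were searched for CCGAC in 35 members with a protein-coding RefSeq entry. It was found in 2 of them, EXPB3 and EXPA12, and in 12% of the 27443 windows of all protein-coding genes. The letters are not in the window of EXLB1, which says nothing of sites elsewhere.

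**Figure D2:**
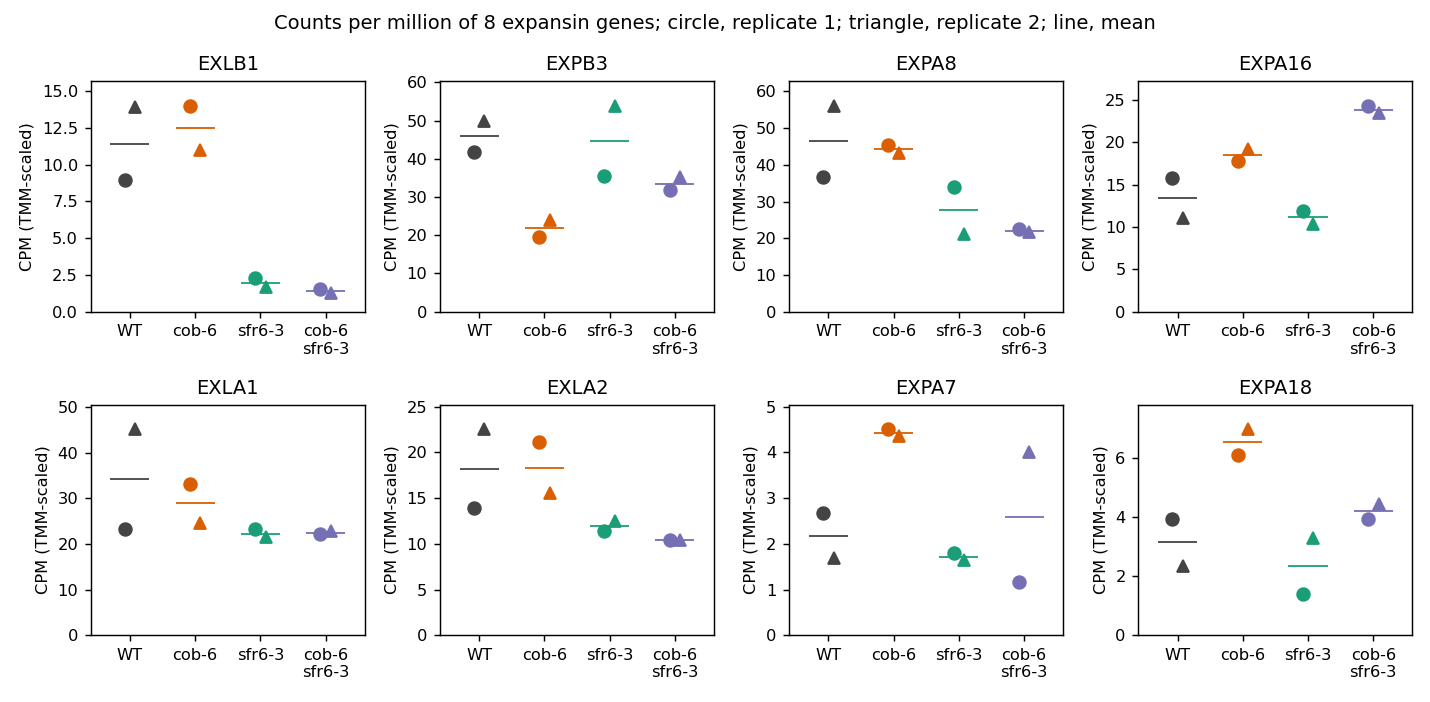
TMM-scaled CPM of 8 expansin genes, with a panel for each gene on its own axis from 0, the 4 genotypes on the horizontal axis, circles for replicate 1, triangles for replicate 2 and a line at the mean. The sfr6-3 and double mutant points of EXLB1 lie between 1.26 and 2.26 CPM, and the cob-6 points of EXPB3, at 19.6 and 23.9, are its lowest.

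Between cob-6 and WT, which asks what the cob-6 allele did alone, 0 of 24 expansins were called by edgeR, where 0.0889% of all genes tested were. At an unadjusted p below 0.05 there were 4 members, among 23, with EXPA5, EXPA16 and EXPA18 higher and EXPB3 lower, against 5.26% of all genes. DESeq2 called 1 of 22 members, EXPB3, against 0.668% of its genes. The median log2 change of the 23 was 0.09, beside 0.01 for all genes. Without WT replicate 1 edgeR called 1 member, against 0.621% of genes, and with the other 7 libraries subtracted from it 1 member, against 0.419%, and both times it was EXPB3.

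EXPB3 (AT4G28250, chromosome 4, 14000038 to 14002069), the most abundant beta-expansin here, read 41.7 and 50.0 CPM in WT and 19.6 and 23.9 in cob-6. It read 35.6 and 53.9 CPM in sfr6-3 and 31.8 and 35.2 in the double mutant. The cob-6 libraries were the 2 lowest, and the double mutant lay above cob-6 and below WT. The log2 change between cob-6 and WT was -1.07 ± 0.20 and missed the call (unadjusted p = 0.000206, edgeR adjusted p = 0.145). It was -1.20 without WT replicate 1 (edgeR adjusted p = 0.0375) and -1.22 with the other 7 subtracted (edgeR adjusted p = 0.0109), but -0.94 without WT replicate 2 (edgeR adjusted p = 0.458), -0.94 without cob-6 replicate 1 (edgeR adjusted p = 1.0) and -1.22 without cob-6 replicate 2 (edgeR adjusted p = 0.412). It was called under 5 of the 15 alternatives. The double mutant differed from cob-6 by 0.62 ± 0.20 (edgeR adjusted p = 0.162) and from WT by -0.45 ± 0.20 (edgeR adjusted p = 0.33), which was -0.58 without WT replicate 1 and -0.60 with the subtraction. The interaction of 0.66 ± 0.29 did not pass (unadjusted p = 0.0403, edgeR adjusted p = 0.526). In the authors' deposited table of the double mutant against cob-6 the fold of EXPB3 is 1.54 with p = 0.0986, and EXPB3 is the 1 expansin in the authors' deposited list of 147 genes that differ in cob-6 but no longer in the double mutant.

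EXPB1, the other tested beta-expansin, whose coding sequence is 76% identical to that of EXPB3, read 6.42 and 8.88 CPM in WT and 5.42 and 4.72 in cob-6. It read 10.6 and 8.16 CPM in sfr6-3 and 6.49 and 5.0 in the double mutant. With the cob-6 allele its log2 change was -0.58 against WT and -0.71 ± 0.29 against sfr6-3 (unadjusted p = 0.0286, edgeR adjusted p = 0.29), so neither passed the test. Against WT it was -0.81 without WT replicate 1 and -0.53 with the subtraction. In both pairs the libraries were separate. Those of cob-6 lay below those of WT, and those of the double mutant below those of sfr6-3. EXPA6, EXPA12, EXPA15, EXPA16, EXPA18 and EXPB3 were also separate in both of these pairs, with no call by edgeR. EXPB3 was lower in both, and EXPA12, EXPA16 and EXPA18 were higher in both. EXPA6, at log2 changes of 0.15 and -0.25, and EXPA15, at -0.33 and 0.30, changed direction. The share of all genes separated in this way was not counted, so the EXPB1 separation is given as description only.

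EXPA7 (AT1G12560) and EXPA18 (AT1G62980) are the expansins known from root hairs, and their upstream windows are shown because they share a motif found in no other member's window. The windows lie at chr1:4276255-4276504 and chr1:23331313-23331562 on the plus strand of TAIR10.1 (RefSeq), and the capitals mark the root hair element, as a published consensus defines it from promoters of root hair genes that include expansins. It starts 78 and ends 62 bases before the start of EXPA7, and starts 40 and ends 25 bases before that of EXPA18, where the window overlaps the coding gene AT1G62978.
EXPA7: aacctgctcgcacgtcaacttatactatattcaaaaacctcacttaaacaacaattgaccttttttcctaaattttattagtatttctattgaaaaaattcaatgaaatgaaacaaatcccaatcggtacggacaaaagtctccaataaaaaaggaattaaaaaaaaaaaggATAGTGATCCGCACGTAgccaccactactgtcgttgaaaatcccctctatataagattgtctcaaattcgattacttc
EXPA18: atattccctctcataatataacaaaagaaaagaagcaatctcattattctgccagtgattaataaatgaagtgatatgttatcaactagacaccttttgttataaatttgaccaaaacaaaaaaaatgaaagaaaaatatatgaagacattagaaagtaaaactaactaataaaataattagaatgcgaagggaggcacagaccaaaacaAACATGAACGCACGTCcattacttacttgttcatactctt
The element was searched on both strands and found in these 2 of 35 members, and in 0.754% of the 27443 windows of all protein-coding genes. Because the consensus draws on promoters of root hair expansins, its presence in these 2 windows may have been set in advance. The counts are therefore given as description only.

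EXPA7 read 2.67 and 1.7 CPM in WT, 4.5 and 4.35 in cob-6, 1.8 and 1.65 in sfr6-3 and 1.17 and 4.01 in the double mutant. EXPA18 read 3.96 and 2.35 CPM in WT, 6.11 and 6.98 in cob-6, 1.4 and 3.29 in sfr6-3 and 3.96 and 4.47 in the double mutant. For each gene the cob-6 libraries lay above every other library, while those of the double mutant overlapped WT for EXPA7 and met the higher WT library for EXPA18. The log2 changes between cob-6 and WT, 1.0 ± 0.53 for EXPA7 (edgeR adjusted p = 0.996) and 1.03 ± 0.42 for EXPA18 (edgeR adjusted p = 0.852), did not pass the test. They were 1.37 and 1.47 without WT replicate 1, 0.73 and 0.72 without WT replicate 2, and 1.04 and 1.05 with the other 7 libraries subtracted from replicate 1, and none of these was called.

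A list of 19 other root hair genes, such as RHD6, RSL4, COBL9 and LRX1, had its highest summed level in cob-6 as well. Its summed level was 259 and 200 CPM in WT, 433 and 384 in cob-6, 197 and 166 in sfr6-3 and 234 and 268 in the double mutant. In cob-6 against WT 0 of 19 were called by edgeR and 9 were higher at an unadjusted p below 0.05, beside 5.26% of all genes in either direction, with a median log2 change of 0.82. The smallest p belonged to RHS19, at a log2 change of 1.25 ± 0.24 (edgeR adjusted p = 0.155), RHS13 at 1.03 ± 0.23 (0.258 by the same test) and PRP3 at 1.18 ± 0.28 (0.301 by the same test). In the double mutant against cob-6 the median was -0.80, with 0 called and 8 lower at an unadjusted p below 0.05, beside 16.7% of all genes in either direction. RSL1 was listed at 0 in double mutant replicate 1 and the other 18 genes had reads in all libraries. The part of root hair abundance in the EXPA7 and EXPA18 values was not tested.

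Markers of root tissue and of green tissue also went mostly in the same direction in some comparisons. In cob-6 against WT, 2 of 14 root genes and 1 of 12 photosynthesis genes had a log2 change above 0. The root hair list had 17 of 19 above 0 there. In the interaction all 12 photosynthesis genes were above 0. The double mutant against sfr6-3 was mixed, with 6 of 14 root genes and 7 of 12 photosynthesis genes above 0. Among 14 root genes, 2 were called, both higher in the double mutant than in cob-6, namely the ammonium transporter AMT1-2 (0.98 ± 0.18, edgeR adjusted p = 0.0216) and the phosphate transporter PHT1-1 (0.88 ± 0.18, edgeR adjusted p = 0.0392), where 1.36% of all genes were called. There, 6 of the 14 were higher at an unadjusted p below 0.05, beside 16.7% of all genes in either direction. The list's medians ran from -0.24 in cob-6 against WT to 0.55 in the double mutant against cob-6, and its summed level from 2493 to 3907 CPM over the 8 libraries. None of 12 photosynthesis genes was called in any comparison by edgeR, where 0.0514% to 1.36% of all genes were. At most 3 of the 12 passed an unadjusted p of 0.05 in 1 direction. This was in cob-6 against WT, beside 5.26% of all genes in either direction. The medians of the 12 ran from -0.27 to 0.35 and their summed level from 42505 to 61004 CPM. LHCB1.1, a light-harvesting protein gene, had the smallest p of that list, at -1.03 ± 0.25 between cob-6 and WT (edgeR adjusted p = 0.315).

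Between sfr6-3 and WT, the effect of the MED16 allele alone, 1 of 24 expansins was called by edgeR, EXLB1, where 0.131% of all genes were. At an unadjusted p below 0.05 there were 4 of 23 members, all lower (EXPA8, EXLA1, EXLA2 and EXLB1), against 5.59% of all genes. DESeq2 called EXLB1 out of 23 members, against 0.867% of its genes. The median of the 23 was -0.00, beside 0.00 for all genes. Without WT replicate 1 edgeR called 2 members, EXLA1 and EXLB1, against 0.757% of genes, and with the other 7 subtracted it called EXLB1, against 0.718%.

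The 3 expansin-like A genes gave no call by edgeR in the comparisons of sfr6-3 with WT or of the double mutant with cob-6. EXLA1 (AT3G45970) read 23.3 and 45.1 CPM in WT, 33.1 and 24.7 in cob-6, 23.2 and 21.5 in sfr6-3 and 22.2 and 22.8 in the double mutant. EXLA2 (AT4G38400) read 13.9 and 22.5 CPM in WT, 21.1 and 15.6 in cob-6, 11.4 and 12.5 in sfr6-3 and 10.4 in both double mutant libraries. For both genes the 4 libraries with the sfr6-3 allele lay below the 4 without it, although WT replicate 1 was close to them. The log2 change of EXLA1 between sfr6-3 and WT was -0.60 ± 0.26 (edgeR adjusted p = 0.866), and -1.02 without WT replicate 1 (edgeR adjusted p = 0.0462), but -0.06 without WT replicate 2 (edgeR adjusted p = 1.0) and -0.49 with the subtraction (edgeR adjusted p = 0.765). The EXLA1 value thus rests on WT replicate 2. For EXLA2 it was -0.59 ± 0.24 (edgeR adjusted p = 0.822), with -0.91 without WT replicate 1, -0.21 without WT replicate 2 and -0.57 with the subtraction, none of them called. EXLA2 differed by -0.82 ± 0.25 between the double mutant and cob-6 (edgeR adjusted p = 0.128). EXLA3 read 1.23 and 1.18 CPM in WT, 1.31 and 1.15 in cob-6, 0.351 and 0.673 in sfr6-3 and 1.2 and 2.48 in the double mutant, so that its sfr6-3 libraries were low and its double mutant libraries were not. Its difference between the double mutant and sfr6-3 was 1.85 ± 0.70 (unadjusted p = 0.0212, edgeR adjusted p = 0.269). The 3 EXLA coding sequences are 82.3% to 86.0% identical to each other, and 98.9% to 100% of their reads were unique. EXLA1 overlaps AT3G45980 by 22 bases, and that gene had 69522 reads against 12692 of EXLA1. Whether its reads entered the EXLA1 counts was not tested.

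EXPA8 (AT2G40610), among the 6 members of highest level, read 36.8 and 56.1 CPM in WT and 45.5 and 43.1 in cob-6. It read 34.1 and 21.1 CPM in sfr6-3 and 22.5 and 21.7 in the double mutant. The libraries with the sfr6-3 allele lay below those without it, with sfr6-3 replicate 1 and WT replicate 1 the nearest to each other. The log2 change was -0.75 ± 0.23 in sfr6-3 (edgeR adjusted p = 0.514), -1.0 ± 0.24 in the double mutant against cob-6 (edgeR adjusted p = 0.0629) and -1.07 ± 0.23 against WT (edgeR adjusted p = 0.064). The last value was -1.34 without WT replicate 1 (edgeR adjusted p = 0.0063) and -1.15 with the other 7 subtracted (edgeR adjusted p = 0.00601), but -0.74 without WT replicate 2 (edgeR adjusted p = 0.558). In sfr6-3 against WT it was -1.02 without WT replicate 1 and -0.83 with the subtraction, but -0.42 without WT replicate 2 and -0.43 without sfr6-3 replicate 2, and none of these was called. In the authors' deposited table EXPA8 has a fold of -2.01 in the double mutant against cob-6, with p = 0.00106.

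EXPA12 (AT3G15370) was sparsely read. It had 89 and 8 reads in WT, 24 and 23 in cob-6, 0 and 0 in sfr6-3 and 6 and 2 in the double mutant. In CPM this is 0.275 and 0.325 in WT, 0.922 and 0.944 in cob-6, and 0.233 and 0.0538 in the double mutant, with exact Poisson 95% intervals of 0.0856 to 0.508 and 0.00652 to 0.194 for the last pair that cover counting error only. The WT mean of 0.3 CPM was 2.56-fold above a floor of 3 reads per library in sfr6-3, 0.117 CPM. This leaves out counting error in WT. The Poisson interval of WT replicate 2, 0.14 to 0.639 CPM, meets that of sfr6-3 replicate 1, 0 to 0.144 CPM. These values are given as a description with no test. None of the EXPA12 differences was called.

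Between the double mutant and cob-6, the comparison of the suppressed with the unsuppressed cob-6 seedlings, 1 of 24 expansins was called by edgeR, EXLB1, where 1.36% of all genes were. At an unadjusted p below 0.05 there were 6 of 23 members, with EXPA4, EXPA15 and EXPB3 higher and EXPA8, EXLA2 and EXLB1 lower, against 16.7% of all genes. DESeq2 called 3 of 26 members, EXPA15 higher and EXPA8 and EXLB1 lower, against 4.28% of its genes. The median of the 23 was 0.09, beside 0.01 for all genes.

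EXPA15 (AT2G03090) read 27.6 and 20.4 CPM in WT, 20.4 and 18.2 in cob-6, 25.8 and 28.4 in sfr6-3 and 30.5 and 35.9 in the double mutant. The double mutant libraries were the 2 highest and those of cob-6 the 2 lowest, with WT replicate 2 beside them. Its log2 change between the double mutant and cob-6 was 0.78 ± 0.18 (unadjusted p = 0.00106, edgeR adjusted p = 0.0609). EXPA4 (AT2G39700) read 30.3 and 24.3 CPM in WT, 16.8 and 24.0 in cob-6, 29.2 and 36.7 in sfr6-3 and 24.6 and 46.2 in the double mutant, and its log2 change of 0.80 ± 0.27 (edgeR adjusted p = 0.178) was 1.18 without double mutant replicate 1 and 0.27 without replicate 2. EXPA1, the most abundant member, differed by -0.44 ± 0.23 (edgeR adjusted p = 0.359), and double mutant replicate 2, at 274 CPM, lay below its replicate 1 at 470. The EXPA1 change was -0.89 without double mutant replicate 1 and -0.11 without replicate 2, so it depends on which of these libraries is kept.

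Between the double mutant and sfr6-3, 0 of 24 expansins were called by edgeR, where 0.0748% of all genes were. At an unadjusted p below 0.05 there were 4 of 23 members, with EXPA3, EXPA16 and EXLA3 higher and EXPB1 lower, against 14.4% of all genes. DESeq2 called 1 of 26 members, EXPA16, against 2.03% of its genes. The median of the 23 was 0.11, beside 0.01 for all genes.

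EXPA16 (AT3G55500), whose coding sequence is 80.2% identical to that of EXPA4, read 15.8 and 11.1 CPM in WT and 17.8 and 19.2 in cob-6. It read 11.9 and 10.4 CPM in sfr6-3 and 24.3 and 23.4 in the double mutant. The double mutant was highest, cob-6 second, and WT overlapped sfr6-3. The log2 change between the double mutant and sfr6-3 was 1.09 ± 0.20 (unadjusted p = 0.000153, edgeR adjusted p = 0.0643), and it was called under 7 of the 15 alternatives. Between cob-6 and WT it was 0.45 ± 0.20 (edgeR adjusted p = 0.912), with 0.73 without WT replicate 1 and 0.55 with the subtraction. Between the double mutant and WT it was 0.81 ± 0.20 (edgeR adjusted p = 0.0866), with 1.1 without WT replicate 1 (edgeR adjusted p = 0.0247) and 0.92 with the subtraction (edgeR adjusted p = 0.0136), but 0.60 without WT replicate 2 (edgeR adjusted p = 0.922). EXPA3 (AT2G37640) read 65.4 and 54.4 CPM in WT, 78.8 and 63.1 in cob-6, 67.7 and 57.6 in sfr6-3 and 79.2 and 87.1 in the double mutant, the highest. Between the double mutant and sfr6-3 it had a log2 difference of 0.41 ± 0.16 (edgeR adjusted p = 0.289).

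Between the double mutant and WT, 1 of 24 expansins was called by edgeR, EXLB1, where 0.846% of all genes were. At an unadjusted p below 0.05 there were 9 of 23 members, with EXPA3, EXPA10, EXPA15 and EXPA16 higher and EXPA8, EXPB3, EXLA1, EXLA2 and EXLB1 lower, against 14.5% of all genes. DESeq2 called 3 of 24 members, EXPA8 and EXLB1 lower and EXPA16 higher, against 3.35% of its genes. Without WT replicate 1 edgeR called 5 members, which were EXPA16 higher and EXPA8, EXLA1, EXLA2 and EXLB1 lower, against 3.45% of genes. With the other 7 subtracted it called 3 members, EXPA8, EXPA16 and EXLB1, against 3.56%. The EXLA1 and EXLA2 changes were -1.01 and -1.12 without WT replicate 1, but -0.05 and -0.42 without WT replicate 2. Both thus depend on which WT library is kept. The median of the 23 was 0.23, beside 0.02 for all genes.

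The interaction, which compares the cob-6 effect in the sfr6-3 background with that in the wild type, gave 0 of 24 calls by edgeR, where 0.0514% of all genes were called. EXPA15, EXPA16 and EXPB3 were higher at an unadjusted p below 0.05, 3 of 23 members against 9.08% of all genes. DESeq2 called 0 of 27 members, against 0.343% of its genes. The log2 interactions of these 3 were 0.62 ± 0.26, 0.64 ± 0.28 and 0.66 ± 0.29. Without WT replicate 1 they were 0.38, 0.36 and 0.78, and with the other 7 subtracted 0.70, 0.54 and 0.81, so the EXPA15 and EXPA16 values rest in part on that library. In both settings edgeR called 0 members, against 0.036% and 0.0238% of genes, and 2 members had an unadjusted p below 0.05 in each, EXLA1 and EXPB3 without WT replicate 1 and EXPA15 and EXPB3 with the subtraction.

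Each allele was also compared in both backgrounds, in contrasts that share no library by label. Since the independence of WT replicate 1 is in doubt, the contrasts may still share reads. The counts of signs were not repeated without WT replicate 1. For the sfr6-3 allele, 15 of 23 members had the same sign against WT (sfr6-3) as against cob-6 (double mutant), 7 lower and 8 higher. EXLB1, EXPA8, EXLA1 and EXLA2 were among those lower in both, and EXLA3 had log2 changes of -1.23 in the first and 0.59 in the second, neither of which was called. For the cob-6 allele, 14 of 23 had the same sign against WT (cob-6) as against sfr6-3 (double mutant), 4 lower and 10 higher. EXPB1 and EXPB3 were among the 4. The share of all tested genes with the same sign was not counted, so neither count is read as agreement of an allele across backgrounds.

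**Figure D3:**
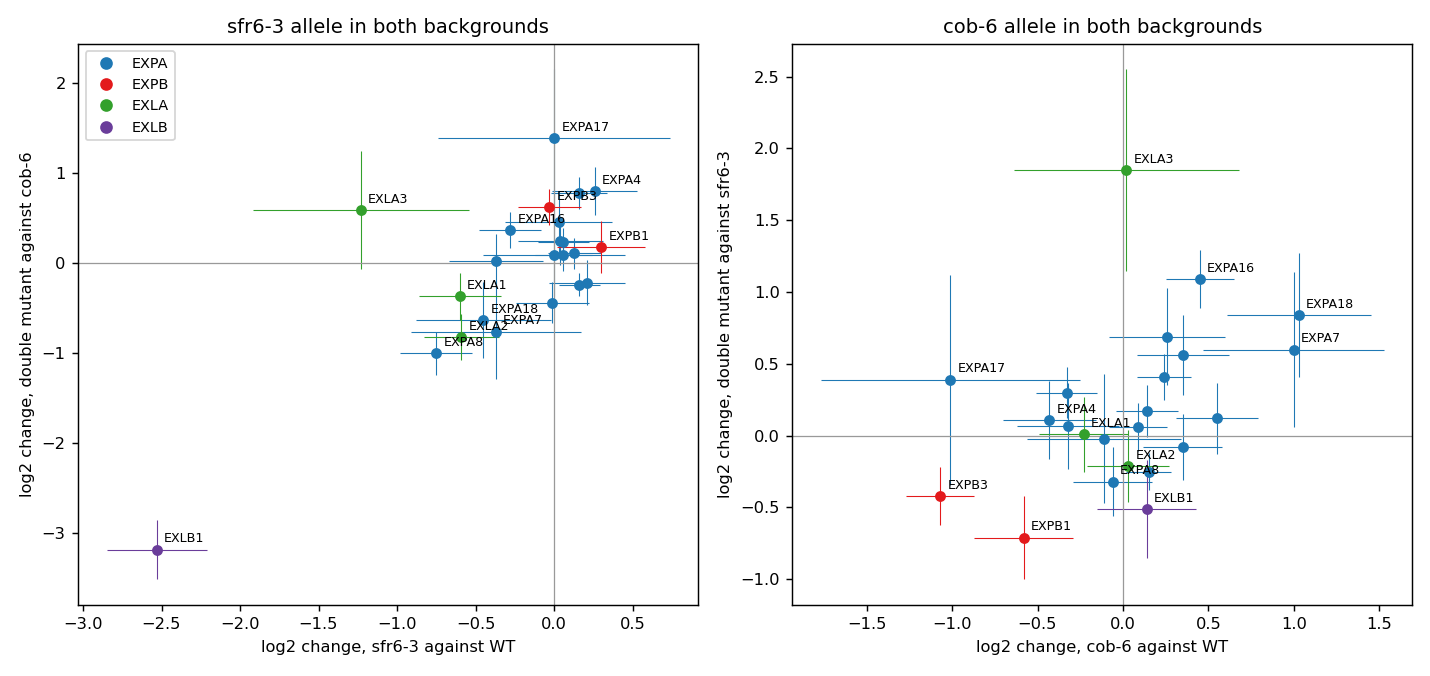
Log2 changes of 23 tested expansins, with standard errors as bars, for the sfr6-3 allele (left; against WT on the horizontal axis, against cob-6 on the vertical axis) and for the cob-6 allele (right; against WT and against sfr6-3). EXPA12, which had no read in sfr6-3, is left out, and EXLB1 lies alone at -2.53 and -3.18 on the left.

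Other alpha-expansins gave no call in any comparison. EXPA6 (AT2G28950) read 124 and 114 CPM in WT, 137 and 127 in cob-6, 132 and 134 in sfr6-3 and 113 and 111 in the double mutant. EXPA9 (AT5G02260) read 40.8 and 33.1 CPM in WT, 38.5 and 43.0 in cob-6, 41.5 and 35.8 in sfr6-3 and 50.5 and 36.3 in the double mutant. No comparison of either gene had an unadjusted p below 0.05. EXPA5 (AT3G29030), an expansin known from brassinosteroid-dependent growth, read 16.4 and 11.3 CPM in WT, 23.8 and 17.1 in cob-6, 15.2 and 17.2 in sfr6-3 and 20.8 and 14.5 in the double mutant. Its log2 change between cob-6 and WT was 0.55 ± 0.24 (unadjusted p = 0.0442, edgeR adjusted p = 0.92), with the cob-6 libraries above both WT libraries. It was 0.86 without WT replicate 1 and 0.57 with the subtraction, neither of them called. The remaining tested alpha-expansins spanned 12.5 to 34.5 RPKM (EXPA11), 14.0 to 18.6 (EXPA13), 2.15 to 5.34 (EXPA14), 0.465 to 1.76 (EXPA17), 6.65 to 14.3 (EXPA10) and 4.34 to 7.51 (EXPA20) over the 8 libraries. EXPA17, known from lateral root formation, had log2 changes of -1.01 ± 0.76 between cob-6 and WT and 1.39 ± 0.76 between the double mutant and cob-6 (edgeR adjusted p = 0.386), at 9 to 51 reads outside WT replicate 1. EXPA11 was highest in double mutant replicate 2, at 40.2 CPM against 14.8 to 26.2 in the other 7 libraries.

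The libraries also differed among themselves within genotypes. After the mean of the 8 libraries was taken from each member's log2 CPM, the median absolute deviation over the 24 tested members was 0.09 in WT replicate 1, 0.43 in WT replicate 2 and 0.47 in double mutant replicate 2, with the other 5 between 0.17 and 0.33. WT replicate 1 was the farthest from 0 for none of the 24 members, and double mutant replicate 2 for 7.

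**Figure D4:**
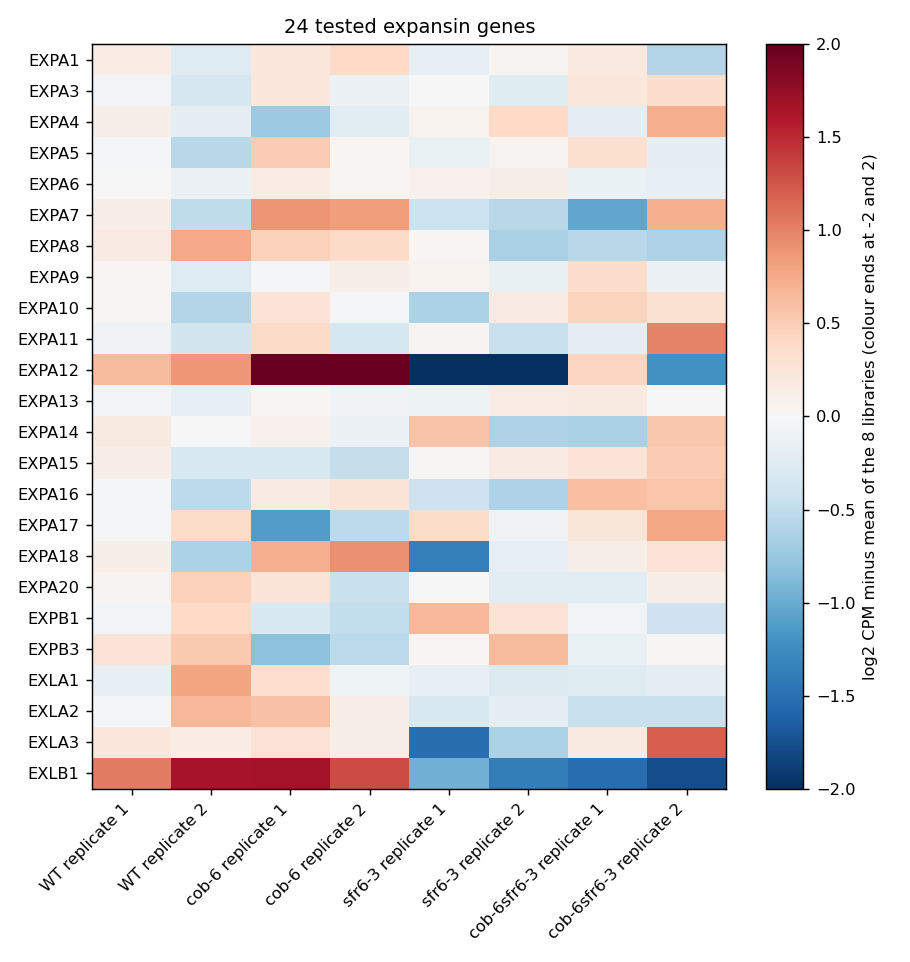
Log2 CPM of the 24 tested expansins minus each gene's mean over the 8 libraries, with genes as rows, libraries as columns and colours that end at -2 and 2. WT replicate 1 is the palest column, and EXLB1 is red in the 4 libraries without the sfr6-3 allele and blue in the 4 with it.

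The genes that acidify the wall, a second arm of acid growth, were followed beside the expansins. Of 11 plasma membrane proton ATPase genes (AHA1 to AHA11) 9 were tested. By edgeR 0 were called in any of the 6 comparisons, where 0.0514% to 1.36% of all genes were. In each, 1 to 3 of them passed an unadjusted p of 0.05, beside 5.26% to 16.7% of all genes. Their medians ran from -0.25 to 0.04. The AHA genes summed to 1356 to 1551 CPM over the 8 libraries. AHA4 had the smallest p, at 1.38 ± 0.35 between the double mutant and cob-6 (edgeR adjusted p = 0.0785), from 4.92 and 2.79 CPM in cob-6 to 8.16 and 11.9 in the double mutant. SAUR19 to SAUR24 encode auxin-induced proteins that keep these pumps active. All 6 were tested and 0 were called by edgeR. In 1 comparison, the double mutant against sfr6-3, 1 passed an unadjusted p of 0.05, beside 14.4% of all genes there. The medians of the 6 ran from -0.97 in the double mutant against WT to -0.09 in sfr6-3 against WT. Their summed level was low, from 4.98 to 9.29 CPM, with both double mutant libraries the lowest.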

How the data were processed

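RNA was sequenced with paired reads of 100 bases, per the labels' protocols. The authors deposited, per the file headers, total and unique read counts per gene and exon, RPKM values, gene positions and exon lengths for 33602 genes, and a table of their own comparison with a signed fold score and a p-value. The sources used here do not give the aligner, the counting and strand settings or the genome build. Deposited starts were read as 0-based and raised by 1, since of 14543 genes with the same end as in TAIR10.1, 10599 then had the same start and 28 had it unchanged.

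Total gene reads were tested with edgeR 4.0.16 (R 4.3.3, TMM factors, filterByExpr, 1 mean per genotype over the 8 libraries, 4 residual degrees of freedom) on the whole table, and p-values were adjusted by Benjamini-Hochberg over 21384 genes. The script was tested on simulated data. Alternatives were DESeq2 1.42.0, RLE factors, no filter on low counts, unique or exon reads, a replicate block, and each library left out. Another subtracted the other 7 libraries from WT replicate 1. It used unique reads in all 8 libraries, so it differs from the main test in the reads counted as well. CPM uses TMM-scaled library sizes. Floors are 3 reads, and intervals cover counting error only.

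Every member is named by its identifier list. Values per library are given for members called in any comparison, the 6 with the highest mean RPKM and those with the 6 smallest p-values in each comparison, 18 genes in all, and the rest appear as ranges and counts. The family, gene lists and tests were chosen with earlier results of these data known. Upstream windows and coding sequences came from RefSeq (TAIR10.1), and identities from global alignments with Biopython 1.88.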

Additional observations from a re-analysis of the deposited data

How the results depend on the processing

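EXLB1 kept its direction and its calls in the double mutant under all 15 alternatives, and in sfr6-3 under 13 of 15. The count of expansins called was 0 in cob-6 against WT and became 1 with DESeq2, 1 with no filter, 1 with the other 7 libraries subtracted from WT replicate 1, 1 with the replicate block (EXPB3, -1.08, adjusted p = 0.0431), and 0 to 1 when a library was left out. In sfr6-3 against WT the count of 1 became 2 with no filter and 0 to 2 when a library was left out. In the double mutant against cob-6 the count of 1 became 3 with DESeq2, 6 with no filter, 2 with unique reads, 2 with the subtraction, and 1 to 4 when a library was left out. Against sfr6-3 the count of 0 became 1 with DESeq2, 2 with no filter, 1 with unique reads, 1 with the subtraction, and 0 to 1 when a library was left out. Against WT the count of 1 became 3 with DESeq2, 6 with no filter, 2 with unique reads, 3 with the subtraction, and 1 to 5 when a library was left out. The interaction had 0 in each setting. The cause of these moves was not tested, and the share of all genes called also moved with the setting. In the 6 comparisons, in the order above, it was 0.0889%, 0.131%, 1.36%, 0.0748%, 0.846% and 0.0514% by the test used above. With DESeq2 it was 0.668%, 0.867%, 4.28%, 2.03%, 3.35% and 0.343%. With unique reads it was 0.0954%, 0.153%, 1.58%, 0.229%, 1.09% and 0.0191%. With the subtraction it was 0.419%, 0.718%, 1.99%, 0.452%, 3.56% and 0.0238%. With no filter it rose to between 0.858% and 5.04%, and it moved as well when a library was left out. Replicate numbers did not pair the samples (correlations of deviations from -0.0743 to 0.0494), and with the replicate block 21, 33, 216, 13, 176 and 8 genes were called in the 6 comparisons, against 19, 28, 291, 16, 181 and 11 without it. Leaving out 1 library leaves a genotype with 1, which is assumed to vary like the others.

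Of 1618 values of 18 members under the alternatives, 1508 kept direction and side of the threshold, 47 passed the test where the reported value had not, 2 no longer passed, and 61 changed sign, none of which was called in either setting. EXPA1 in sfr6-3 against WT was 0.01 with the replicate block and EXLB1 in cob-6 against WT was -0.13 with the subtraction, and the others changed sign when a library was left out. The log2 ranges over the libraries left out were, in cob-6 against WT, EXPA8 (-0.34 to 0.27), EXPA9 (-0.00 to 0.30), EXLA1 (-0.64 to 0.31), EXLA2 (-0.29 to 0.40), EXLA3 (-0.07 to 0.11) and EXLB1 (-0.15 to 0.48); in sfr6-3 against WT, EXPA1 (-0.20 to 0.21), EXPA3 (-0.06 to 0.21), EXPA5 (-0.02 to 0.52), EXPA7 (-0.63 to 0.01), EXPA9 (-0.08 to 0.22), EXPA15 (-0.03 to 0.40), EXPA16 (-0.50 to 0.01), EXPA18 (-1.19 to 0.03) and EXPB3 (-0.36 to 0.23); in double mutant against cob-6, EXPA5 (-0.50 to 0.04), EXPA9 (-0.16 to 0.31), EXPB1 (-0.02 to 0.36) and EXLA3 (-0.03 to 1.01); in double mutant against sfr6-3, EXPA1 (-0.52 to 0.26), EXPA4 (-0.42 to 0.49), EXPA5 (-0.16 to 0.36), EXPA7 (-0.56 to 1.22), EXPA8 (-0.64 to 0.07), EXPA9 (-0.09 to 0.39) and EXLA1 (-0.06 to 0.07); in double mutant against WT, EXPA1 (-0.54 to 0.24), EXPA4 (-0.16 to 0.75), EXPA7 (-0.94 to 0.84), EXPA9 (-0.03 to 0.45) and EXLA3 (-0.00 to 1.03); in the interaction, EXPA7 (-1.55 to 0.24), EXPA8 (-0.58 to 0.13), EXPA9 (-0.22 to 0.25), EXPA18 (-0.67 to 0.55), EXPB1 (-0.37 to 0.10), EXLA1 (-0.30 to 0.65) and EXLA2 (-0.61 to 0.09). Depth limits the 12 untested members and EXPA12, whose libraries hold 0 to 89 reads.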
